A study of Mus musculus with 4 samples.

Results

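Paneth cell and antimicrobial genes were followed across 4 microarrays of RNA from mouse intestinal epithelium, as every probe set annotated with 1 of 8 gene symbols: Lyz1, Defa24, Reg3b, Reg3g, Mmp7, Lypd8, Ang4 and Pla2g2a. Each of the 8 genes had 1 probe set, of 34760 probe sets and 19937 genes with 1 symbol in all. The arrays held RNA immunoprecipitated with an antibody to Msi1 (Musashi1, an RNA-binding protein), RNA immunoprecipitated with an antibody labelled hnRNP, RNA from a nonspecific IgG precipitation, and input RNA that was not precipitated. All 4 came from adult C57BL/6 mice. The intestine precipitated for Msi1 had been crosslinked with ultraviolet light and its RNA was copied from random primers, per the series' design text. Whether the input was crosslinked is not labelled, and the labels name neither the gut segment nor which hnRNP was targeted. Each group was 1 array of RNA pooled from 2 experiments, so no difference below has a replicate check, none was tested, and differences are described by size only.

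Paneth cells sit at the base of the small intestinal crypts and release granules of antimicrobial proteins into the crypt lumen. Their products include lysozyme, alpha-defensins, secreted phospholipase A2 and, in the mouse, the ribonuclease Ang4, and the protease Mmp7 cuts mouse pro-alpha-defensins into their active form. Other defence proteins of the gut are not confined to Paneth cells: the lectins Reg3b and Reg3g are also made by enterocytes, and Lypd8 is a surface protein of enterocytes that binds bacterial flagella. Musashi proteins bind short RNA motifs with a UAG core, which in known targets lie mostly in the part of the messenger RNA after the coding sequence.

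Values are log2 signals, and a difference of 1 is 2-fold. A signal counted as detected where it passed a floor set separately for each array. This was the 95th percentile of the values of 1208 probe sets for smell and pheromone receptors, assumed here not to be expressed in gut epithelium. This floor lay at 4.74 for Msi1, 5.17 for hnRNP, 5.26 for IgG and 4.09 for input. Above them were 9527 genes on the Msi1 array, 6560 on hnRNP, 5604 on IgG and 11786 on input. All 8 antimicrobial genes passed it on input, and 7 did so on Msi1, 2 on hnRNP and 5 on IgG. In the GRCm38.p6 annotation Lyz1 is at chr10:117287795-117292868, Defa24 at chr8:21734494-21735471, Reg3b at chr6:78370885-78373466, Reg3g at chr6:78466269-78468874, Mmp7 at chr9:7692090-7699585, Lypd8 at chr11:58379032-58390541, Ang4 at chr14:51763892-51773590 and Pla2g2a at chr4:138831857-138835189. Differences between arrays are taken within a probe set only, since different probe sets have different responses. The floors, and the ranks and groups by input signal used below, do compare across probe sets and are rough for that reason.

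The label was checked on the input array. Beside the Paneth genes among the 8, a second Paneth lectin gene, Itln1, read 8.65 on input and the alpha-defensin gene Defa39 read 10.71, both far above the floor, while Mptx1 (3.90) lay below it. All 13 enterocyte markers found were above the input floor, as were all 9 enteroendocrine, all 7 tuft, all 8 stem cell and 8 of 9 goblet markers. Passing the input floor thus does not single out Paneth cells. Of other markers, 5 of 11 myeloid, 4 of 8 stromal and muscle and 4 of 7 pancreatic acinar ones were above this floor. Over all genes 59.1% were above it, so the last 3 shares do not show these cell types to be depleted. The neutrophil genes Mpo (3.59), Elane (3.51) and S100a8 (2.50) were below the floor, while the myeloid gene Lyz2 (8.49) was far above it. In such bulk RNA, fewer cells of a type and less RNA per cell cannot be told apart.

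**Figure D1:**
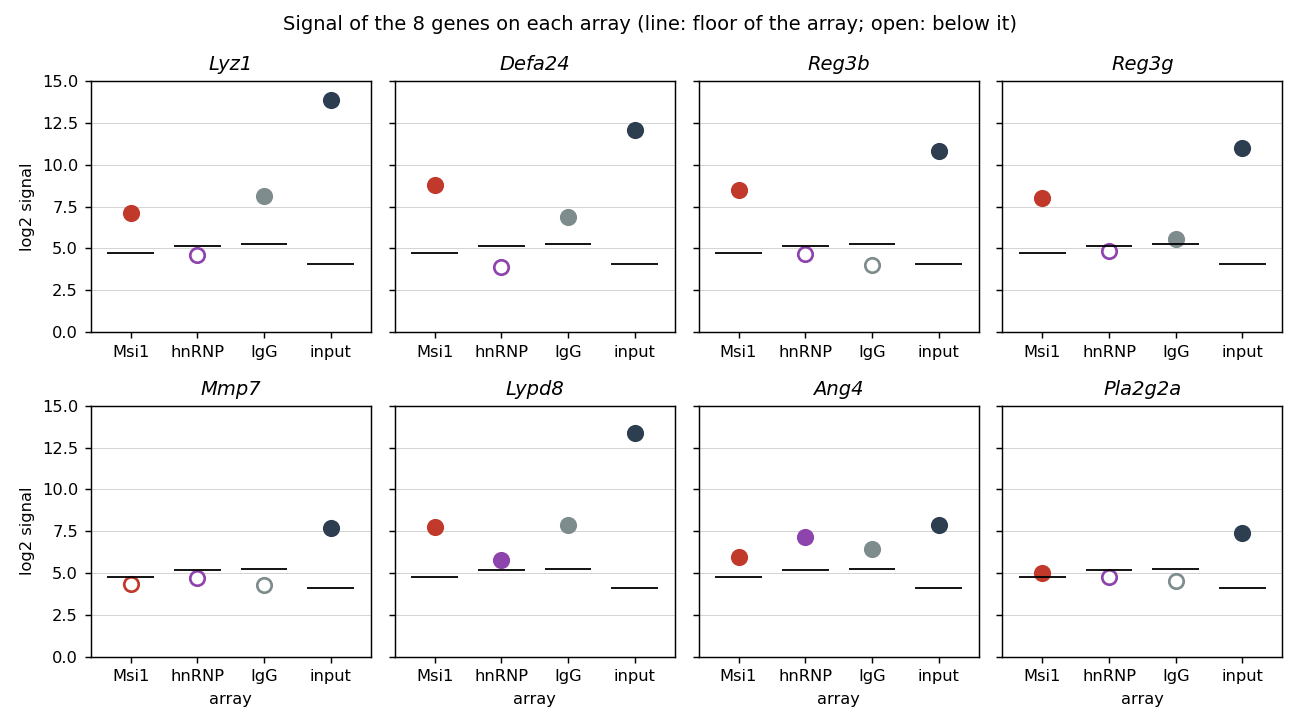
Log2 signal (vertical axis) of the 8 genes on the Msi1, hnRNP, IgG and input arrays (1 array each), with a black line at the floor of each array and open circles for values below it. All 8 genes were highest on input, and Reg3b stood far above the floor in Msi1 while lying below it in hnRNP and IgG.

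The lectin genes Reg3b and Reg3g were the members of the group furthest above the IgG control in the Msi1 precipitation. Reg3b read 8.47 in Msi1, 4.69 in hnRNP, 4.04 in IgG and 10.82 in input. It was thus at background in both other precipitations, and its Msi1 signal was at least 9.23-fold that of IgG, taking the floor in place of the IgG value. The deposited values differed by 4.43.

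Reg3g, whose product kills Gram-positive bacteria by binding their cell wall, read 8.04 in Msi1, 4.84 in hnRNP, 5.58 in IgG and 11.00 in input. Msi1 exceeded IgG by 2.46, or 5.50-fold, and here both values were above their floors. The IgG value was, however, only a little over the floor of 5.26. Against hnRNP, where both lectin genes lay below the floor, Reg3b was at least 9.88-fold and Reg3g at least 7.34-fold higher in Msi1.

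Both genes lie on chromosome 6 at 92.8 kb from each other in the GRCm38.p6 annotation, in a cluster with other Reg genes. Since this pair of neighbours was high together in Msi1, their RefSeq promoter windows (250 bases before to 50 bases after the start of the gene) are shown, with the TATA-box letters TATAAA and the STAT-type motif TTCNNNGAA in capitals wherever they occur on either strand. Reg3b is at chr6:78370635-78370934 on the plus strand and Reg3g at chr6:78468825-78469124 on the minus strand, both in GRCm38.p6 and written 5′ to 3′ on the gene's strand.
Reg3b: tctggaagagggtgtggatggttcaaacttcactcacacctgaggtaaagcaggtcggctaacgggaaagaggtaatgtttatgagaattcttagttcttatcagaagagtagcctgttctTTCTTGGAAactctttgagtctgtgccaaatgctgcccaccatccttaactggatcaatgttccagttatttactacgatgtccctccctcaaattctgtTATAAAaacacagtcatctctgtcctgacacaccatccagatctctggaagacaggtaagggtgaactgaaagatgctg
Reg3g: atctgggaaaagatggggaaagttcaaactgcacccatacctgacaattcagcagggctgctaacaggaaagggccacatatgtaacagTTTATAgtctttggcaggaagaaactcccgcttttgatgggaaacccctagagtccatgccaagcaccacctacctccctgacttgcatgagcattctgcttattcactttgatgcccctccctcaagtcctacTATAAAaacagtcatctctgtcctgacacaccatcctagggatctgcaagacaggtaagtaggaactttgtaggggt

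The pair of windows had 212 identical bases over an alignment of 307 columns, 69.1%, and their longest shared run was 29 bases across the start of the gene. TATAAA began 29 bases before the start in Reg3b and 27 bases before it in Reg3g, and 13.6% of all 32851 promoter windows held it on either strand. TTCNNNGAA occurred in the Reg3b window and not in that of Reg3g, and 8.30% of all windows held it. On the gene strand of the 50 bases after the start, Reg3g held TAG 3 times, 2 of them within GTAG, and Reg3b held none. TAG was in 33.7% of all such windows and GTAG in 11.1%. These letters cover only the start of the transcript and can run into the first intron, so they say nothing of Musashi sites elsewhere in either messenger RNA.

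Defa24 encodes an alpha-defensin, a small pore-forming peptide stored in Paneth granules. It read 8.78 in Msi1, 3.87 in hnRNP, 6.85 in IgG and 12.06 in input. Msi1 exceeded IgG by 1.93, or 3.81-fold, with both values above the floor, and exceeded hnRNP at least 12.2-fold. With quantile normalization, which forces the arrays to the same distribution, the excess over IgG was 1.23. The difference from hnRNP was 4.91 as deposited and 3.61 with the floor in place of the hnRNP value.

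The related Defa39 was also above the IgG floor but its difference was smaller. It read 7.50 in Msi1, 5.70 in hnRNP, 6.83 in IgG and 10.71 in input, so that Msi1 exceeded IgG by 0.67. Alpha-defensin genes are close copies of each other, with 28 protein-coding members in the RefSeq table, and only Defa24 and Defa39 had a probe set of their own here. A further 5 probe sets carried several alpha-defensin symbols, and Msi1 exceeded IgG by 2-fold or more on 3 of them and fell short of it by that much on 0. These 3 read above 10 on input, a level at which 62.3% of genes were higher. Signal from other family members on the Defa24 probes was not tested.

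Lyz1 encodes the lysozyme of Paneth granules, which cuts bacterial cell walls. It read 7.11 in Msi1, 4.61 in hnRNP, 8.10 in IgG and 13.89 in input. The Msi1 value was thus below that of IgG, by 0.99 or 1.99-fold, just short of the 2-fold used for calls. With quantile normalization the difference was −1.60, past 2-fold. Lyz1 carried a signal far above the floor in the IgG control, 8.10 against 5.26, and its input value lay near the highest value of that array, 14.32.

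The neighbouring gene Lyz2, the lysozyme gene of myeloid cells, lies 5.52 kb from Lyz1 and is similar in sequence. It read 4.83 in Msi1, 5.02 in hnRNP, 5.42 in IgG and 8.49 in input, with Msi1 minus IgG at −0.59. Both lysozyme genes read lower in Msi1 than in IgG, though neither passed 2-fold as deposited. Lyz2, however, was only a little over the floors of 4.74 in Msi1 and 5.26 in IgG. The receptor probe sets that set the floors had a median of −0.38 in the same comparison. The direction of Lyz2 is therefore not settled, and a direction shared with Lyz1 is not shown. Hybridisation of one gene's RNA to the other's probes was not tested.

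Lypd8, like Lyz1, was far above the IgG floor and not higher in Msi1 than in IgG as deposited. It read 7.77 in Msi1, 5.79 in hnRNP, 7.90 in IgG and 13.35 in input, and Msi1 minus IgG was −0.12 (−0.81 with quantile normalization, 0.01 with each array centred on its median). It was above the floor on all 4 arrays. Its Msi1 value was 3.94-fold that of hnRNP, and its hnRNP value was 4.29-fold lower than that of IgG.

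Ang4, a ribonuclease with microbicidal activity, stood apart in its order of arrays. It read 5.98 in Msi1, 7.17 in hnRNP, 6.45 in IgG and 7.90 in input, all above the floors. It was the only one of the 8 genes at least 2-fold lower in Msi1 than in hnRNP, by 1.19 or 2.28-fold. Its hnRNP value exceeded IgG by 0.71, which is under 2-fold. Ang4 also differed least from input on each precipitation array, by −1.92 in Msi1, −0.73 in hnRNP and −1.44 in IgG. With quantile normalization they were −0.56, 1.05 and 0.31, so the directions in hnRNP and IgG depended on the scaling and that in Msi1 did not.

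Mmp7 and Pla2g2a were clear on input only. Mmp7 read 4.37 in Msi1, 4.73 in hnRNP, 4.31 in IgG and 7.70 in input, so all 3 precipitations were below their floors and no difference among them can be read. Pla2g2a read 5.01 in Msi1, 4.78 in hnRNP, 4.53 in IgG and 7.37 in input, with the Msi1 value barely above the floor of 4.74. Its Msi1 minus IgG difference was 0.47 as deposited and −0.26 after the floor replaced the IgG value, so its direction is not settled. The RefSeq table lists Pla2g2a of the C57BL/6J genome as a transcribed pseudogene, and C57BL/6 mice are known to carry a disrupted copy that yields no active enzyme, so the signal is that of the transcript.

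**Figure D2:**
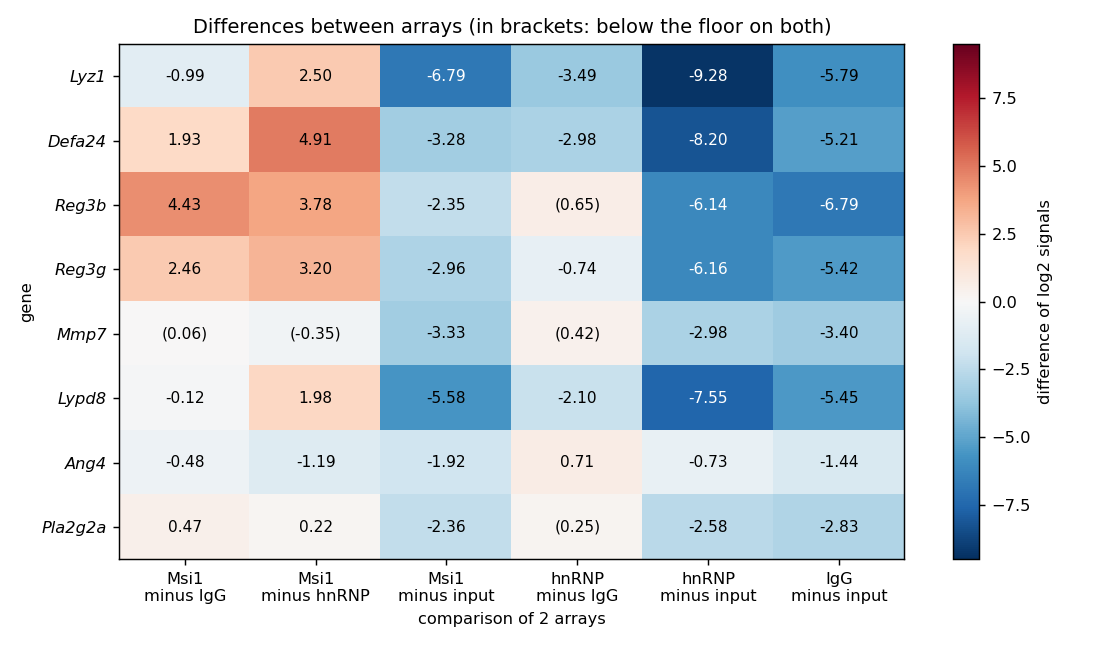
Differences of log2 signals between arrays (colour scale, red for higher in the array named first) for the 8 genes (rows) in 6 comparisons (columns), with brackets where a gene was below the floor on both arrays. Against IgG, Msi1 exceeded 2-fold for Defa24, Reg3b and Reg3g, and the columns against input are negative throughout as deposited.

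Against IgG, the comparison by which the study ranked enrichment, Msi1 was higher by 2-fold or more for 3 of the 7 genes detected (Reg3b, Reg3g and Defa24) and lower for 0. Among all 10368 genes detected, 18.6% were higher and 6.91% lower. The median difference of the 7 genes was 0.47, against 0.06 over all genes detected, but that median is the value of Pla2g2a, whose direction is not settled. With dim values raised to the floor the median of the 7 was −0.12, against −0.20 over all genes. Mmp7 was the gene not detected on either array.

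Genes that were bright on input were higher in Msi1 more often than genes at large. In a comparison chosen after these values were seen, Msi1 was higher than IgG by 2-fold or more for 62.3% of the 175 genes detected at 10 or more on input, and lower for 2.29%. With quantile normalization 49.1% were higher. Of the 8 genes, 5 were at that level (Lyz1, Defa24, Reg3b, Reg3g and Lypd8) and 3 of these 5 were higher, a share near that of other bright genes. The middle 80% of such bright genes spanned differences of −0.29 to 3.34. Lyz1 (−0.99) lay below that span, and Reg3g, Defa24 and Lypd8 lay inside. Reg3b lay above it as deposited (4.43) and inside it with the floor in place of its IgG value (3.21).

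**Figure D3:**
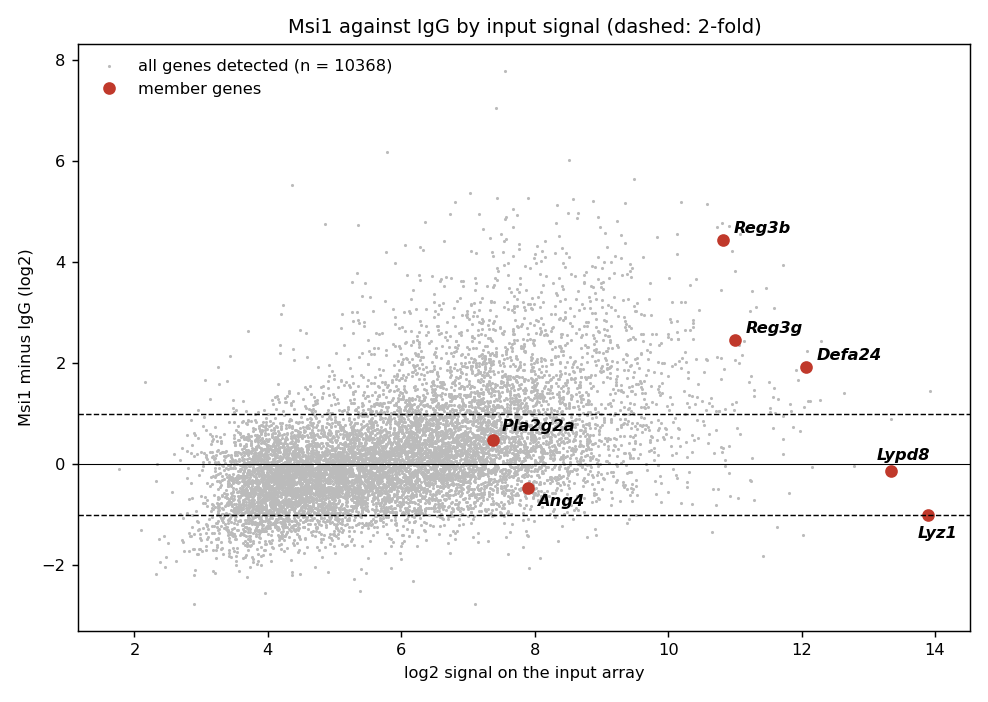
Msi1 minus IgG (log2, vertical axis) against the input signal (log2, horizontal axis) for all 10368 genes detected on Msi1 or IgG (grey points), with 7 of the 8 genes in red and dashed lines at 2-fold. Reg3b, Reg3g and Defa24 lie above the upper line, and Lyz1 and Lypd8 are at or below 0 although they are among the brightest genes on input.

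Against hnRNP, Msi1 was higher by 2-fold or more for 5 of the 7 genes detected and lower for 1, Ang4. Over all 10673 genes detected, 17.5% were higher and 7.79% lower, and among the 176 at 10 or more on input 63.6% were higher and 3.98% lower. All 5 higher genes were those at that input level. The hnRNP value lay below its floor for Lyz1, Defa24, Reg3b and Reg3g, so only Lypd8 and Ang4 were measured on both sides. Lyz1 exceeded hnRNP at least 3.84-fold, although it was lower in Msi1 than in IgG.

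The hnRNP array read lower than IgG for Lyz1, Defa24 and Lypd8. Of the 5 genes detected on hnRNP or IgG, these 3 were at least 2-fold lower in hnRNP and 0 were higher, while 4.51% of 7917 genes were lower and 6.26% higher. Among the 142 detected at 10 or more on input, 18.3% were lower and 4.93% higher. All 3 lower genes read above 11 on input. Of the 55 genes detected at 11 or more, a level chosen after the data were seen, 30.9% were lower and 0 higher. Lyz1 was at least 7.66-fold lower (−3.49 as deposited), Defa24 at least 3.21-fold (−2.98) and Lypd8 4.29-fold (−2.10). Lyz1 and Defa24 were below the hnRNP floor, so the order of these 2 genes is not settled by the deposited values. The bound for Lyz1 was past the fold of Lypd8. That for Defa24 was not, so the order of Defa24 and Lypd8 is not settled either. Reg3g differed by −0.74, and Reg3b was below the floor on both arrays.

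Against input, as deposited, all 8 genes were at least 2-fold lower in Msi1 and in IgG, and 7 of the 8, all but Ang4, were in hnRNP. Bright genes in general were lower: 38.3% of 12782 genes were lower in Msi1 than in input and 11.8% were higher, but 95% of the 180 at 10 or more on input were lower and 0 were higher. In hnRNP, 43.3% of 12879 genes were lower and 18.7% higher than in input, and in IgG 44.7% of 12693 were lower and 16.6% higher. At 10 or more on input, 100% were lower in hnRNP and in IgG. The direction against input therefore sets none of the 5 bright genes apart, and only its size is described below.

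In Msi1 against input, where all 5 bright genes were above both floors, Lyz1 was 110-fold lower (−6.79) and Lypd8 47.7-fold (−5.58). Reg3b (−2.35, 5.11-fold) and Reg3g (−2.96, 7.76-fold) were far less reduced, and Defa24 was in between (−3.28, 9.73-fold). The median over the 180 bright genes was −3.58, beside −3.09 for genes at 9 or more on input and −3.79 at 11 or more. From most to least reduced, these genes also followed their input signals: Lyz1 13.89, Lypd8 13.35, Defa24 12.06, Reg3g 11.00 and Reg3b 10.82. How much of each size goes with input signal was not tested. In hnRNP against input, Lyz1 was at least 424-fold lower and Defa24 at least 119-fold, both being below the hnRNP floor. Lypd8, measured on both arrays, was 188-fold lower (−7.55).

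In IgG against input the 5 bright genes were closer together. Lyz1 (−5.79), Lypd8 (−5.45), Reg3g (−5.42) and Defa24 (−5.21) were above the IgG floor, and Reg3b, below it, was at least 47.1-fold lower. The median over the 180 bright genes was −5.05. The 6 comparisons use only 4 arrays and share them, so a low value on 1 array enters 3 of them.

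The genes with the most similar profiles, by Euclidean distance over the 4 arrays after each gene's mean was subtracted, were searched among 11786 genes above the input floor. For Lyz1 the closest was Lypd8 (distance 1.37 log2 units), then the chaperone gene Hspa8 (2.02) and Dmbt1, which encodes a mucosal scavenger protein (2.12). For Defa24 the closest was Agr2, a disulfide isomerase gene of goblet cells (1.10), then Mgam (1.20) and Ceacam1 (1.23). For Reg3b these were the transcription factor gene Hnf4g (0.65), the intestinal cadherin gene Cdh17 (0.68) and Rhoa (0.69).

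For Reg3g the closest were Ugt2b34 (0.23), the noncoding Tug1 (0.24) and the sodium pump subunit gene Atp1b1 (0.25). Lypd8 was closest to Rpl28 and Dmbt1 (0.95 each) and Hspa8 (1.07). Ang4 was closest to Cd96 (0.05), Fxyd5 (0.12) and B4galnt3 (0.13). Mmp7 was closest to Camsap3 (0.10), Stard10 (0.11) and Mbtps1 (0.12), and Pla2g2a to Midn and Wac (0.09 each) and Lsr (0.11). Values below a floor entered these distances as deposited. This holds for Mmp7 in every precipitation and for Pla2g2a and Reg3b in hnRNP and IgG. It also holds for Lyz1, Defa24 and Reg3g in hnRNP. With 4 arrays the distances are a description only.

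The families of the 8 genes did not share 1 pattern in Msi1 against IgG, where 18.6% of all genes detected were higher and 6.91% lower. Of 7 Reg lectin genes, 4 were detected on either array and 3 of them were higher: Reg3b, Reg3g and Reg4, which differed by 1.03 or at least 1.10-fold with the IgG value at the floor. Reg3a differed by 0.41. Reg1, singled out after its values were seen, read 10.78 in input but was below the floor in Msi1 (4.54), hnRNP (4.22) and IgG (4.69). It lies between Reg3b and Reg3g on chromosome 6, and unlike them it was not recovered with Msi1 above background.

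As deposited, none of the 8 secreted phospholipase A2 genes detected was 2-fold higher or lower (1 higher and 1 lower with quantile normalization), with Pla2g12b at 0.74 and Pla2g1b at −0.82. Matrix metalloproteinase genes had 0 of 8 higher and 2 lower, Mmp20 (−1.09, at least 1.87-fold) and Mmp17 (−1.02, 2.03-fold), with a median of −0.68. Only 5 of 22 genes found in this family, and 6 of 40 beta-defensin genes, were above the input floor. The receptor probe sets that set the floor had a median of −0.38 in the same comparison. How much of these family values is background was not tested. Of 9 Ly6 and LYPD family genes, Ly6k was higher (1.23, at least 1.46-fold) and Lypd5 lower (−1.13, 2.19-fold). Beta-defensin genes, which are expressed chiefly outside the gut epithelium, had 1 of 8 higher, Defb46 (1.32), and 2 lower, Defb11 (−1.49, at least 1.77-fold) and Defb25 (−1.06, at least 1.58-fold). The Msi1 value of Defb46 was below the IgG floor, so no bound on its fold is given. Among angiogenin and related ribonuclease genes only Ang4 and Rnase1 (−0.01) were detected.

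Other mucosal defence genes held some of the larger differences. Of 8 detected, 3 were higher and 1 lower, with a median of 0.49, against 18.6% higher, 6.91% lower and a median of 0.06 over all genes detected. Pigr, the receptor that carries immunoglobulin A across the epithelium, exceeded IgG by 3.82 (14.1-fold) and Ccl28, a chemokine that attracts plasma cells, by 2.43 (at least 5.35-fold). The third was the mucus lectin gene Zg16 (2.23, 4.70-fold), which is also in the goblet list. Pigr (11.00) and Zg16 (12.08) were bright on input, and 62.3% of genes at 10 or more on input were higher. Dmbt1, at 11.24 on input, differed by −0.33. Duox2, an oxidase that makes hydrogen peroxide, was lower (−1.52, at least 2.07-fold), and the protease inhibitor-like gene Wfdc2 differed by −0.86.

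Other Paneth cell genes were spread around 0. Of 17 detected, 3 were higher and 2 lower (median −0.01), against 18.6% and 6.91% over all genes. The higher ones were Guca2b (2.10, at least 2.99-fold), which encodes a guanylate cyclase ligand, the Wnt receptor gene Fzd5 (1.61, 3.04-fold) and Atoh1 (1.27), the secretory lineage transcription factor gene. Guca2b read 10.79 on input, and 62.3% of genes at 10 or more on input were higher. Which cells the signal of the listed genes came from was not tested. The lower ones were Spdef (−1.53, 2.88-fold) and the ephrin receptor gene Ephb3 (−1.19, at least 1.90-fold). The granule lectin gene Itln1, despite 8.65 on input, was below the floor in Msi1 (4.37), hnRNP (3.84) and IgG (3.43).

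Genes that sense microbes or induce antimicrobial proteins had 2 of 14 higher and 0 lower, against 18.6% and 6.91% over all genes. With quantile normalization 4 were higher and the median was −0.08, against 0.16 as deposited. The 2 were Myd88, the adaptor of Toll-like receptors (1.56, at least 1.25-fold), and Nfkbiz (1.15, at least 1.26-fold), while Ticam1 differed by −0.62 and Tlr9 by −0.77. Autophagy and secretory stress genes had 5 of 15 higher and 0 lower, with a median of 0.39. Rab11a, a vesicle traffic gene (3.22, at least 4.59-fold), and the chaperone gene Hspa5 (2.08, at least 3.91-fold) led them, and Ern2 (−0.43) and Atg12 (−0.32) were lowest.

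Markers of other cell types differed from each other in the same comparison, in which 18.6% of all genes detected were higher and 6.91% lower. Enterocyte markers, the dimmest of which read 8.75 on input, had 9 of 13 higher and 0 lower with a median of 1.55, beside 62.3% higher among genes at 10 or more on input. With quantile normalization 6 of 13 were higher and the median was 0.96. The highest were Fabp2 (at least 22.9-fold) and Dpp4 (at least 4.93-fold). Goblet cell markers had 5 of 8 higher and 1 lower, with a median of 1.22 (4 higher and 1.03 with quantile normalization). All those detected but Spink4, Spdef and Ccl6 read above 10 on input, and the share higher is near the 62.3% of genes at that level. Stem cell markers had 2 of 6 higher, the crypt gene Olfm4 (a difference of 2.80) and Slc12a2 (1.73). Enteroendocrine markers had 0 of 6 higher and 1 lower, the granin gene Chga (a difference of −1.43, a fold of at least 1.79).

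Tuft cell markers had 1 of 4 higher, Rgs13 (2.60, at least 2.26-fold), and 1 lower, Ltc4s (−1.40, at least 2.41-fold). Lymphoid markers had 0 of 2 higher and 1 lower, Cd79a (−2.77, at least 2.20-fold), and pancreatic acinar markers had 0 of 3 higher and 1 lower, Cpa1 (−1.61, 3.04-fold). Myeloid markers (2 detected) and stromal and muscle markers (5 detected) had none past 2-fold in either direction as deposited, and 1 stromal and muscle marker was lower with quantile normalization. The part of other cell types in the values of the 8 genes was not tested.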

How the data were processed

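RNA was measured on Affymetrix Mouse Gene 1.0 ST arrays, with 100 ng labelled per array, per the labels' protocols. The deposited table holds 1 log2 value per probe set and array as the authors made it. The tool affy is named in the submitters' processing notes, with no word in the sources used here on background correction, on normalization or on the base of the logarithm. A base of 2 was taken from the span of the values, 1.07 to 14.3, and every fold rests on that. The 4 arrays had standard deviations of 1.38 (Msi1), 1.20 (hnRNP), 1.17 (IgG) and 2.01 (input), so they had not been quantile normalized at this level.

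Groups follow the antibody in the labels. Symbols came from GEO's platform annotation: 21640 probe sets had 1 symbol, 1321 several and 11799 none here, and 21553 matched the RefSeq table (GRCm38.p6) by Entrez identifier. For other genes with several probe sets (954) the one with the highest mean was used. Genes above the floor on at least 1 array compared were counted as higher or lower at 2-fold. For a dimmer signal under its floor, the fold is a lower bound against that floor. On arrays the signal over the floor takes the place of depth, and precision is limited by having so few arrays. Of 333 list entries, 33 were not found by symbol.

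The 8 genes, the 21 lists and the floor were chosen with earlier results of these data known. Named genes are the 8, the 2 highest and 2 lowest of each list by Msi1 minus IgG among those detected, and the 3 closest profiles, with exceptions that complete a count or are said to be chosen afterwards. Alternatives were 2 other scalings, other floors, thresholds of 1.5-fold and 3-fold, detection on both arrays, dim values raised to the floor and averaging over probe sets of a gene. The steps were tested on simulated data. Python 3.11.15 with pandas 2.3.3, numpy 2.4.6, biopython 1.88 and matplotlib 3.10.9 was used.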

Additional observations from a re-analysis of the deposited data

Results flagged for a closer look

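Probe sets that carry several gene symbols were outside the comparisons of named genes. Among those from the defence families, Msi1 exceeded IgG by 2-fold or more on 3 of 5 alpha-defensin and 1 of 2 Sprr2a-type probe sets. It did so on 0 of those with Ang (1), Ly6 (2) or Pla2g (1) symbols. All 4 higher ones read above 10 on input, and 62.3% of genes at that level were higher, so the share is near that of bright genes. Of 5 that carry alpha-defensin symbols only, the first (4 symbols) read 11.67 in Msi1, 7.19 in hnRNP, 8.94 in IgG and 12.92 in input, with Msi1 minus IgG at 2.73. Another (9 symbols) read 9.56, 6.33, 7.51 and 11.36 in the same order of arrays, with a difference of 2.06.

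The remaining 3 alpha-defensin probe sets carried the same 8 symbols and yet differed from each other, with Msi1 minus IgG at 2.37, 0.44 and −0.82. The first of these 3 read 11.78 in Msi1, 8.93 in hnRNP, 9.42 in IgG and 11.05 in input, and it was the only one of the 5 above input in Msi1 (0.74). The others had Msi1 minus input at −1.24, −1.80, −1.94 and −1.96.

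The fourth probe set was annotated with Sprr2a-type symbols, small proline-rich proteins of the epithelium. It read 9.80 in Msi1, 6.52 in hnRNP, 7.81 in IgG and 12.34 in input, with Msi1 minus IgG at 1.99. The second Sprr2a-type probe set differed by 0.53.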

How the results depend on the processing

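No paired analysis was possible because each group had 1 array. The number of the 8 genes past 2-fold stayed within 1.5 times under most alternatives. With detection on both arrays it was 2 of 8 in Msi1 minus hnRNP (6 as reported), 1 in hnRNP minus IgG (3), 1 in hnRNP minus input (7) and 5 in IgG minus input (8), since fewer genes then have a value. With the 1.5-fold threshold it was 5 in hnRNP minus IgG. Quantile normalization reversed Ang4 in IgG minus input (0.31, against −1.44), put Ang4 at 1.05 in hnRNP minus input (−0.73) and took Lyz1 past 2-fold lower in Msi1 than in IgG (−1.60). In Msi1 minus IgG, Reg3b, Reg3g and Defa24 were the genes called higher under every alternative run except detection on both arrays, where Reg3b dropped out. Of 48 differences (8 genes, 6 comparisons), quantile normalization moved 27 by more than the standard deviation of that difference over the receptor probe sets and reversed 1 called value, raising dim values to the floor moved 9 and median centring 0. The sign changed for 2, 6 and 1 of them in that order of settings. With quantile normalization the alpha-defensin median in Msi1 minus IgG was 0.64, against 1.30, and lower genes numbered 1 of 3 lysozyme (0 as deposited), 3 of 8 matrix metalloproteinase (2), 2 of 9 Ly6 and LYPD (1), 2 of 8 mucosal defence (1), 3 of 17 other Paneth (2) and 2 of 4 tuft (1) genes, while 1 of 3 pancreatic acinar markers was higher (0). Over all genes, the shift of the median under median centring was largest in the comparisons with input (IgG minus input −1.10, against −0.71 as deposited). With quantile normalization 59.4% of calls in Msi1 minus IgG were higher (2312 higher, 1579 lower), against 72.9% as deposited (1927 and 716), 57.1% in Msi1 minus hnRNP (69.2%), 39.4% in Msi1 minus input (23.6%), 42.1% in hnRNP minus input (30.1%) and 39.4% in IgG minus input (27.0%). Among genes bright on input, the share higher in Msi1 than in IgG was 58.3% at 9 or more and 62.7% at 11 or more (62.3% at 10), levels chosen after seeing the data. Detection on both arrays left 375 higher and 254 lower genes in Msi1 minus IgG. Signals near the floor limit Mmp7, Pla2g2a and the IgG value of Reg3g.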
